A study of Homo sapiens with 13 samples.

Results

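The transcripts of the repressor REST and of 9 corepressor partners (RCOR1, RCOR2, RCOR3, SIN3A, HDAC1, HDAC2, CTBP1, CTBP2 and CDYL) were followed in HEK293T, a cell line from human embryonic kidney with the SV40 large T antigen. The 10 genes were chosen by name, and every probe whose gene symbol in the array files is one of them was taken, which gave 14 of 42405 probes (10 of 21789 gene symbols in the files). All 14 were well above background in both RNAs on 13 of 13 arrays and were among the 34143 probes tested. Cells treated with 1 µM UNC0638 for 48 h were set against cells given DMSO, with 5 biological replicates on 7 arrays. UNC0638 inhibits the enzymes G9a (encoded by EHMT2) and GLP (encoded by EHMT1), which methylate lysine 9 of histone H3. Cells taken 72 h after transfection of WIZ siRNA were set against control siRNA cells in 2 replicates on 4 arrays. WIZ is a zinc finger partner of both enzymes. Cells taken 72 h after G9a siRNA were set against control siRNA cells in 2 replicates on 2 arrays. On both of these arrays treated RNA carried the dye Cy5 and control RNA Cy3, with no exchange of dyes. A lipid reagent carried every siRNA, and whether the siRNA arms shared a control RNA is not given in the labels.

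REST is a zinc finger protein that binds a bipartite DNA element, called RE1, near many neuronal genes and keeps them silent in cells that are not neurons. One end of the protein recruits SIN3 complexes with the deacetylases HDAC1 and HDAC2. The other end recruits the CoREST scaffolds, which hold HDAC1, HDAC2 and the demethylase LSD1 (gene KDM1A), and further partners such as CtBP proteins, CDYL and G9a have been placed at REST through these complexes.

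The results turned on 4 of the probes, whose sequences are shown so that a reader can see what was hybridised. They are given 5′ to 3′ in lower case as in the array files, with no part marked, on build 37.1 of the files. The REST probe lies at chr4:57798055-57798114 on the plus strand, and the first RCOR3 probe at chr1:211486131-211486190 on the plus strand. The first HDAC2 probe lies on the minus strand of chromosome 6 in 2 blocks, chr6:114262195-114262252 and chr6:114262872-114262873, and the second CTBP2 probe at chr10:126681824-126681883 on the minus strand. Exon and UTR placement was not looked up, since no annotation of that build was used here.
REST: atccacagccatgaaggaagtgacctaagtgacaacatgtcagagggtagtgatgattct
RCOR3 probe 1: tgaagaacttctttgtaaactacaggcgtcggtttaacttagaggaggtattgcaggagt
HDAC2 probe 1: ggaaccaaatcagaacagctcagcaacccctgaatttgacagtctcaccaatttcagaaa
CTBP2 probe 2: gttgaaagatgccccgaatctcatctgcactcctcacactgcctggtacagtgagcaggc

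Each value below is a log2 ratio of treated over control RNA for 1 probe, after background correction and normalization within the array. Where a replicate was hybridised in both dye orientations, its 2 arrays were averaged. A probe is called changed where limma gave a Benjamini-Hochberg adjusted p below 0.05 over all 34143 probes. SE is that of the fit. The replicates are named biological in the labels. In bulk RNA, fewer cells with a transcript and less transcript per cell cannot be told apart.

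Facts of the whole set bear on every value. Median spot brightness was 194 to 415 for Cy3 and 151 to 638 for Cy5. The Cy3 background pixels separated the arrays into 2 sets, one with UNC0638 replicates 1 and 2 and WIZ siRNA, the other with UNC0638 replicates 3 to 5 and G9a siRNA. The targeted transcripts were low on their own arrays, EHMT2 at -1.67 and -1.65 with G9a siRNA and WIZ at -2.33, -2.01, -2.20 and -1.93 with WIZ siRNA. On the WIZ siRNA arrays EHMT2 lay at 1.23 and 0.73 with treated RNA in Cy3, and at -0.56 and -0.17 in Cy5. Both G9a siRNA arrays had treated RNA in Cy5, and the part of the dye in the EHMT2 values was not tested. Across all tested probes, the correlation of UNC0638 replicate 3 was 0.867 and 0.83 with the G9a siRNA replicates, and 0.0992 to 0.641 with the other UNC0638 replicates. All 8 HEK293T markers were above background on every array. Of markers of other cells, CD14 was above background on all 13 arrays in both RNAs, and PTPRC, CD3E, GFAP, ALB and MYH6 were on 3 to 8 arrays in treated RNA and 3 to 11 in control RNA. The part of this likeness, of the sets and of these markers in the member values was not tested.

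The REST transcript itself was not called in any treatment. With UNC0638 the 5 replicates lay at 0.12, 0.10, 0.14, 0.06 and 0.39. All 5 were above 0, and replicate 5 stood apart from the rest. Their mean was 0.16 ± 0.13 (SD, n = 5; SE 0.056), or 112% of the DMSO level, with a 95% interval of 0.04 to 0.29 and a limma adjusted p of 0.161. With WIZ siRNA REST lay at 0.15 and 0.08 (mean 0.12, interval -0.08 to 0.31, limma adjusted p = 0.948), and with G9a siRNA at 0.07 and 0.03 (mean 0.05, interval -0.14 to 0.25, limma adjusted p = 0.678). All 9 replicates were above 0, and none reached 0.4. None of the differences between treatments was called for REST. WIZ siRNA minus UNC0638 was -0.04 (interval -0.28 to 0.19), G9a siRNA minus UNC0638 was -0.11 (interval -0.34 to 0.13), and WIZ siRNA minus G9a siRNA was 0.06 (interval -0.22 to 0.34).

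The 2 RNAs of each array can also be read as levels of this 1 probe, on a normalized log2 intensity scale. REST averaged 9.22 ± 0.11 in UNC0638-treated cells and 9.06 ± 0.030 in DMSO-treated cells (SD, n = 5 each). It averaged 9.16 ± 0.047 with WIZ siRNA and 9.05 ± 0.0052 with control siRNA, and 9.09 ± 0.023 with G9a siRNA and 9.03 ± 0.051 with control siRNA (SD, n = 2 each). The levels of the replicates with UNC0638, from 9.16 to 9.41, did not overlap with those with DMSO, from 9.02 to 9.10. The dye moved with this difference. In UNC0638 replicates 1 and 2 the ratio was 0.25 and 0.26 with treated RNA in Cy5, while with treated RNA in Cy3 it was -0.07 in replicate 2 and within 0.01 of 0 in replicate 1. Replicates 3 to 5 had treated RNA in Cy5 only. With the dye effect of the swapped pairs subtracted, the UNC0638 mean of REST was 0.11 (limma adjusted p = 0.248), and that with G9a siRNA was -0.02. With median centring in place of loess the G9a siRNA mean was -0.18, so no direction is given for REST there.

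**Figure D1:**
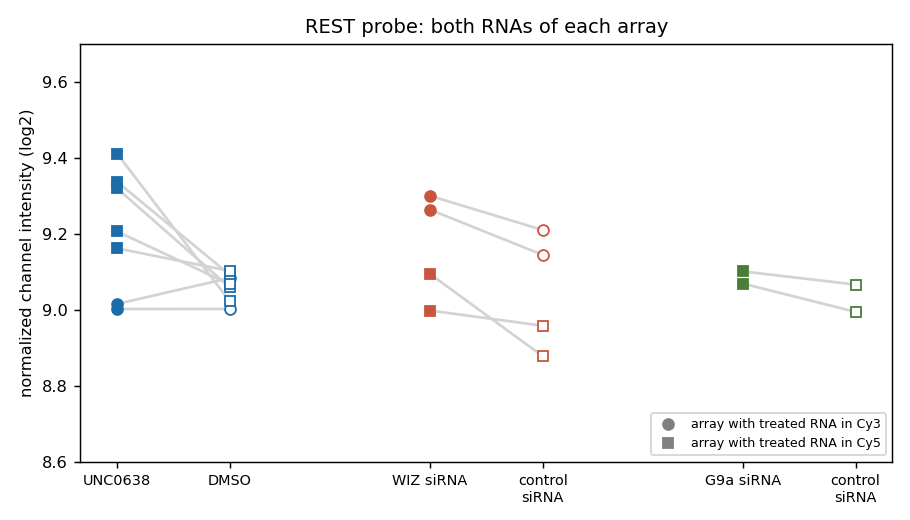
Normalized log2 channel intensity of the REST probe on each of the 13 arrays, treated RNA (filled) left of its control RNA (open), with a grey line joining the 2 RNAs of an array. Circles mark treated RNA in Cy3 and squares treated RNA in Cy5, and the widest gap, in UNC0638 replicate 5, is 0.39.

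RCOR1, RCOR2 and RCOR3 encode the CoREST scaffolds, which join LSD1 to the deacetylases. RCOR2, known from stem and neural cells, fell with UNC0638 and with G9a siRNA. Its replicates lay at -0.46, -0.10, -0.46, -0.36 and -0.15 with UNC0638, a mean of -0.31 ± 0.17 (SD, n = 5; SE 0.066) or 80.9% of the DMSO level (limma adjusted p = 0.041). All 5 were below 0. Replicates 1 and 2 lay at -0.32 and 0.12 with treated RNA in Cy3, and at -0.61 and -0.32 in Cy5. In replicates 3 to 5 treated RNA was in Cy5 only. RCOR2 was the 1 member probe of 14 called with UNC0638, beside 3.24% of all tested probes (1.68% lower), and 4 members had an unadjusted p below 0.05. Within the sets RCOR2 lay at -0.28 in replicates 1 and 2 and -0.32 in replicates 3 to 5. The call was lost in most alternative settings and when any of 7 single replicates was left out, with adjusted p from 0.0651 to 0.137.

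With G9a siRNA, RCOR2 lay at -0.29 and -0.44, a mean of -0.36 (SE 0.10, n = 2, limma adjusted p = 0.025). With the dye as a term it was -0.41 and not called (limma adjusted p = 0.19). With WIZ siRNA it lay at -0.22 and -0.31 and was not called (mean -0.27, SE 0.10, limma adjusted p = 0.517). The means of the 3 treatments differed from each other by at most 0.10, and their intervals reached from -0.34 to 0.43, so no pair was told apart. The arrays of WIZ siRNA gave RCOR2 values of -0.39 and -0.76 with treated RNA in Cy3, and of -0.05 and 0.15 in Cy5.

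RCOR1, the most widely expressed CoREST scaffold, was not called against control in any treatment. With WIZ siRNA it lay at -0.33 and -0.39 (mean -0.36, SE 0.098, n = 2, unadjusted p = 0.00497 and adjusted p = 0.229 in limma). With G9a siRNA it lay at 0.23 and 0.27 (mean 0.25, limma adjusted p = 0.0808), and with UNC0638 at -0.17, -0.01, 0.25, -0.10 and 0.08 (mean 0.01, limma adjusted p = 0.945). The siRNA replicates did not overlap, and WIZ siRNA minus G9a siRNA was -0.61 (SE 0.14, interval -0.92 to -0.29, limma adjusted p = 0.0192). On the WIZ siRNA arrays RCOR1 lay at -0.71 and -0.73 with treated RNA in Cy3 but at 0.06 and -0.05 in Cy5.

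RCOR3, the third scaffold, rose with G9a siRNA on both of its probes. Probe 1 lay at 0.39 and 0.90 (mean 0.64, SE 0.13, limma adjusted p = 0.00608), and probe 2, at chr1:211489128-211489187 on the plus strand, at 0.41 and 0.86 (mean 0.64, SE 0.13, limma adjusted p = 0.00618). Both means are 156% of the control siRNA level, and on both probes replicate 2 was more than 0.4 above replicate 1. With the dye effect subtracted the G9a siRNA means were 0.63 for probe 1 and 0.44 for probe 2. With median centring they were 0.44 and 0.42. In both settings both probes were still called in limma (adjusted p from 0.00948 to 0.0308). With UNC0638 probe 1 lay at 0.05, 0.06, 0.34, 0.29 and -0.04 and probe 2 at 0.06, 0.00, 0.44, 0.06 and 0.01. Replicate 3 was the highest on each. With WIZ siRNA probe 1 lay at -0.09 and -0.02 and probe 2 at -0.18 and -0.25. Probe 2 lay there at -0.51 and -0.51 with treated RNA in Cy3, and at 0.15 and 0.00 in Cy5. WIZ siRNA minus G9a siRNA was -0.70 for probe 1 (limma adjusted p = 0.0293) and -0.86 for probe 2 (limma adjusted p = 0.0164).

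SIN3A encodes the scaffold that REST's other repression domain binds. Its probe, at chr15:75663585-75663644 on the minus strand, was not called in any comparison. With UNC0638 it lay at 0.10, -0.10, 0.18, -0.18 and -0.60, a mean of -0.12 ± 0.31 (SD, n = 5; interval -0.34 to 0.10). With WIZ siRNA it lay at 0.19 and 0.25 and with G9a siRNA at 0.03 and 0.12. The lowest value, in UNC0638 replicate 5, was more than 0.4 below the next.

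HDAC1 and HDAC2 encode class I deacetylases that sit in both the SIN3 and the CoREST complexes. HDAC2 rose with G9a siRNA. Its probe 1 lay at 0.78 and 1.10, a mean of 0.94 (SE 0.17, n = 2) or 192% of the control siRNA level (limma adjusted p = 0.00449), the largest rise among the members. With UNC0638 it lay at 0.04, 0.04, 0.74, -0.04 and 0.07, so that replicate 3 was near the G9a siRNA values and the other 4 near 0 (mean 0.17, limma adjusted p = 0.409). With WIZ siRNA it lay at -0.04 and -0.10 (mean -0.07, limma adjusted p = 1). G9a siRNA minus UNC0638 was 0.77 (SE 0.20, limma adjusted p = 0.0402), and WIZ siRNA minus G9a siRNA was -1.01 (SE 0.24, limma adjusted p = 0.0219).

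HDAC2 probe 2, for which the files give neither sequence nor position, lay at 0.37 and 0.36 with G9a siRNA (mean 0.37, SE 0.13, limma adjusted p = 0.0472). This probe differed by dye more than probe 1 did, at -0.42 and -0.61 on the WIZ siRNA arrays with treated RNA in Cy3, and at 0.52 and 0.39 with the dyes exchanged. With the dye effect subtracted its G9a siRNA mean was 0.03 (limma adjusted p = 0.914), against 0.86 for probe 1 (limma adjusted p = 0.00804). The effect subtracted is a mean over the swapped pairs. For probe 1 the Cy5 ratios were below the Cy3 ratios in the UNC0638 pairs and above them in the WIZ siRNA pairs. These gaps cancel in part, so this setting cannot say how far the dye bears on probe 1. With UNC0638 probe 2 lay at -0.13, -0.14, 0.12, -0.23 and -0.52 (mean -0.18, limma adjusted p = 0.242). Its G9a siRNA minus UNC0638 difference was 0.55 (limma adjusted p = 0.043).

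HDAC1, measured at chr1:32799037-32799096 on the plus strand, was lower in most replicates without being called. It lay at 0.05, -0.11, -0.20, -0.06 and -0.54 with UNC0638 (mean -0.17, SE 0.077, limma adjusted p = 0.247) and at -0.29 and -0.28 with G9a siRNA (mean -0.28, SE 0.12, limma adjusted p = 0.103). With median centring the UNC0638 mean was -0.04. With WIZ siRNA it lay at -0.05 and -0.01. The 2 G9a siRNA values were close to each other, and the UNC0638 values spread over 0.5.

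The HDAC1 probe and HDAC2 probe 1 are printed 10 times on each array, which gives the error of a spot. Within an array the SD over the 10 spots ranged from 0.037 to 0.078 for HDAC1 (median 0.048) and from 0.030 to 0.077 for HDAC2 (median 0.052). Between the 5 UNC0638 replicates the SD was 0.22 for HDAC1 and 0.32 for HDAC2. These are errors of different kinds and are not compared. The spots of UNC0638 replicate 3 all showed the high HDAC2 ratio.

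**Figure D2:**
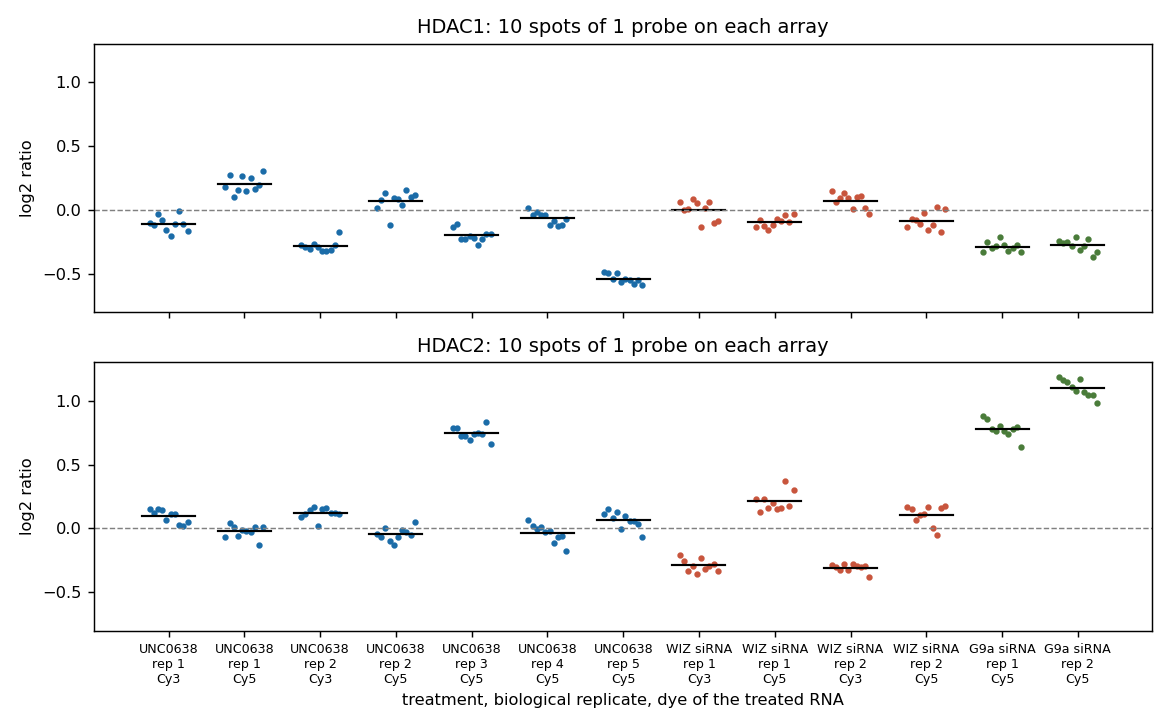
Log2 ratio of treated over control RNA for each of the 10 spots of the HDAC1 probe and of HDAC2 probe 1 on the 13 arrays, with a black line at the mean of each array. HDAC2 spots are high on both G9a siRNA arrays (means 0.78 and 1.10) and on the array of UNC0638 replicate 3 (0.74), and on the WIZ siRNA arrays the HDAC2 means change sign with the dye orientation.

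CTBP1 and CTBP2 encode NAD-binding corepressors that join DNA-bound repressors to histone-modifying enzymes, G9a among them. CTBP1 fell with G9a siRNA on both probes. Probe 1, at chr4:1205718-1205777 on the minus strand, lay at -0.81 and -1.01, a mean of -0.91 (SE 0.16, n = 2) or 53.2% of the control siRNA level (limma adjusted p = 0.0041). Probe 2 lay at -0.77 and -0.81 (mean -0.79, SE 0.15, limma adjusted p = 0.00516). With UNC0638 probe 1 lay at 0.05, -0.29, -0.41, 0.31 and -0.37 and probe 2 at 0.05, -0.27, -0.24, 0.16 and -0.59. The UNC0638 values lay on both sides of 0 and above those with G9a siRNA. With WIZ siRNA probe 1 lay at 0.23 and 0.17 and probe 2 at 0.32 and 0.20, and neither was called (limma adjusted p = 0.967 and 0.814).

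For CTBP1, G9a siRNA minus UNC0638 was -0.77 on probe 1 (SE 0.19, limma adjusted p = 0.0341) and -0.61 on probe 2 (SE 0.18, limma adjusted p = 0.0533). WIZ siRNA minus G9a siRNA was 1.11 and 1.05 (limma adjusted p = 0.0144 and 0.0146). Probe 1 lay at 0.94 and 0.70 on the Cy3 arrays of WIZ siRNA and at -0.47 and -0.37 on its Cy5 arrays, so each replicate averages values of opposite sign. With the dye as a term in a fit of the 13 arrays, CTBP1 with G9a siRNA lay at -0.78 and -0.65 and was not called (limma adjusted p = 0.12 and 0.17).

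The 2 CTBP2 probes moved in opposite directions with G9a siRNA. Probe 1, at chr10:126677470-126677529 on the minus strand, lay at 0.51 and 0.69 (mean 0.60, SE 0.13, limma adjusted p = 0.00805). Probe 2 lay at -0.63 and -0.98 (mean -0.81, SE 0.16, limma adjusted p = 0.00554). The files list the 2 under different CTBP2 transcripts. No single direction can be given for CTBP2. In UNC0638 replicate 3 the probes also parted, at 0.41 and -0.49. In the other UNC0638 replicates probe 1 lay at -0.08, 0.03, 0.44 and 0.05 and probe 2 at 0.08, -0.08, 0.22 and -0.33. With WIZ siRNA probe 1 lay at -0.13 and -0.05 and probe 2 at 0.13 and 0.14.

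CDYL, a chromodomain protein that has been described as a bridge between REST and G9a, was not called in any comparison. Its probe, at chr6:4954782-4954841 on the plus strand, lay at -0.09, -0.07, 0.73, 0.34 and -0.19 with UNC0638, the widest spread of any member (SD 0.39, mean 0.14, interval -0.13 to 0.42). With WIZ siRNA it lay at -0.13 and -0.06 and with G9a siRNA at 0.13 and 0.37. UNC0638 replicate 3 was again the highest.

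**Figure D3:**
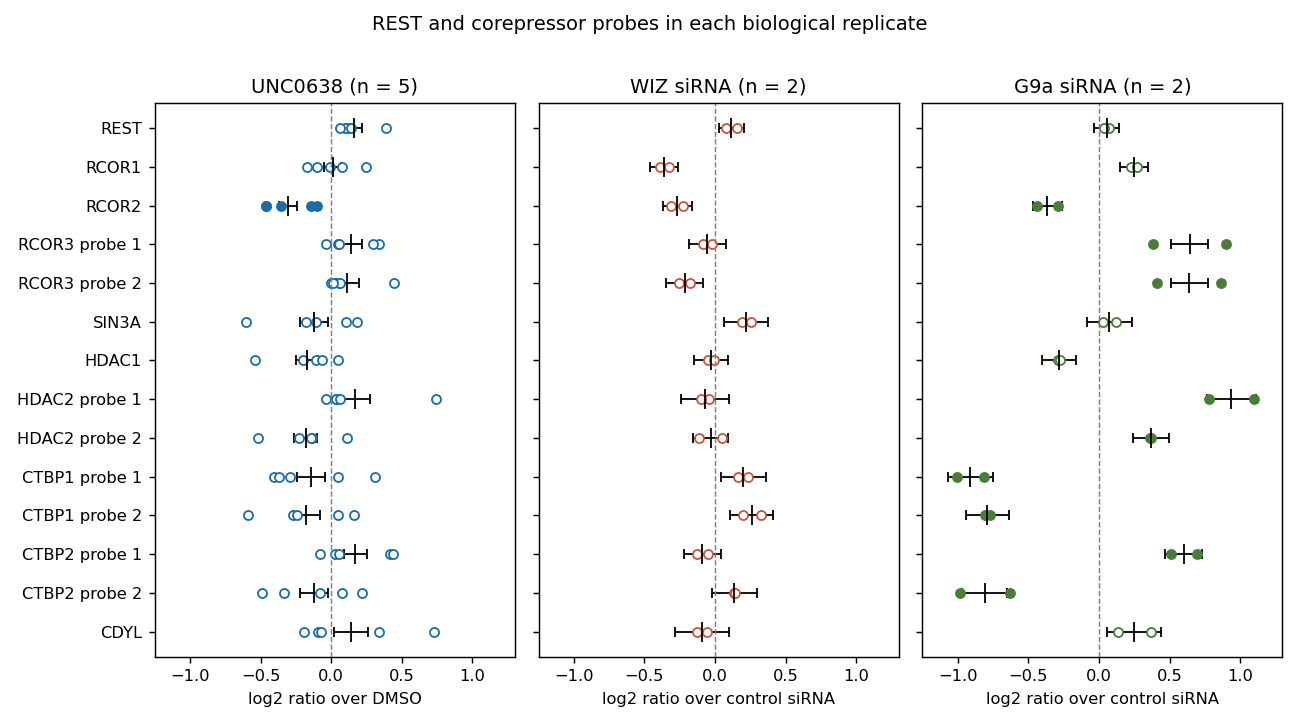
Log2 ratio of treated over control RNA for the 14 member probes (rows) in each biological replicate (points), with the fitted mean (black tick) and its SE (bar), for UNC0638 (n = 5), WIZ siRNA (n = 2) and G9a siRNA (n = 2). Filled points mark probes called changed, which are 1 with UNC0638, 0 with WIZ siRNA and 9 with G9a siRNA, where the 2 CTBP2 probes lie on opposite sides of 0.

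Over the 10 genes, G9a siRNA gave 9 called probes of 14 (64.3%), beside 34.2% of all tested probes. Of these 5 rose, beside 15.2% of all probes, and 4 fell, beside 19% of all probes. The 9 probes belong to 5 genes, so they are not 9 separate observations. Taken by the brightest probe of each gene, 5 of the 10 genes were called, beside 41.3% of 18578 genes. The 14 probes were above background on every array, as were 19233 of the 34143 tested probes, so the 34.2% includes dimmer probes. The median of the members was 0.16 and that of all probes -0.01. The counts that follow are again of the 14 probes. Without G9a siRNA replicate 1 the count was 7, without replicate 2 it was 0, and with the dye as a term it was 5 (4 higher and 1 lower).

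With WIZ siRNA 0 of 14 member probes were called in limma, beside 0.515% of all tested probes. At an unadjusted p below 0.05 there were 2, RCOR1 and RCOR2, both lower. Fitted on the WIZ siRNA replicates alone, limma called 7 of 14 members, 4 higher and 3 lower, beside 25.8% of all tested probes in that fit. The median of the members was -0.05 with UNC0638 and -0.04 with WIZ siRNA, and that of all probes -0.01 and 0.02.

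Between treatments, WIZ siRNA minus UNC0638 gave 0 called members of 14 in limma, beside 0.715% of all probes, with 2 at an unadjusted p below 0.05. G9a siRNA minus UNC0638 gave 4, beside 12.8% of all probes. The 2 higher ones (background 5.99%) were the HDAC2 probes, and the 2 lower ones (background 6.81%) were CTBP1 probe 1 and CTBP2 probe 2 (-0.69, limma adjusted p = 0.0441). WIZ siRNA minus G9a siRNA gave 8, beside 20.7% of all probes. In 3 the WIZ siRNA ratio was higher (background 11.7%), both CTBP1 probes and CTBP2 probe 2 (0.94, limma adjusted p = 0.0216). In 5 it was lower (background 9%), RCOR1, both RCOR3 probes, HDAC2 probe 1 and CTBP2 probe 1 (-0.69, limma adjusted p = 0.0309). Each siRNA lies wholly in 1 set of arrays, so that target, set and dye layout cannot be told apart between the siRNAs, and the UNC0638 time differs from theirs. With set as a block 0 members were called in either of the last 2 comparisons. The count for G9a siRNA minus UNC0638 was 0 when UNC0638 replicate 1, 2 or 4, either WIZ siRNA replicate or G9a siRNA replicate 2 was left out, 1 without G9a siRNA replicate 1, and 9 without UNC0638 replicate 3. That for WIZ siRNA minus G9a siRNA was 0 without either WIZ siRNA replicate or G9a siRNA replicate 2.

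The dye and the GC content of the probe moved with these values, and their part in the results was not tested beyond the settings given. The arrays of a WIZ siRNA replicate in opposite orientations correlated at -0.501 and -0.362 over all tested probes after being turned to treated over control, and those of UNC0638 replicates 1 and 2 at 0.0454 and 0.0256. Among members the gap between orientations was wide for CTBP1 and HDAC2 probe 2 and narrow for CDYL and RCOR3 probe 1. It had opposite signs in the UNC0638 and WIZ siRNA pairs for RCOR1, RCOR2, SIN3A, HDAC1, HDAC2 probe 1, CTBP1 and CTBP2 probe 2. For these, a mean dye effect taken over both treatments cancels in part. G9a siRNA had treated RNA in Cy5 on both arrays, so treatment and dye cannot be told apart there.

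**Figure D4:**
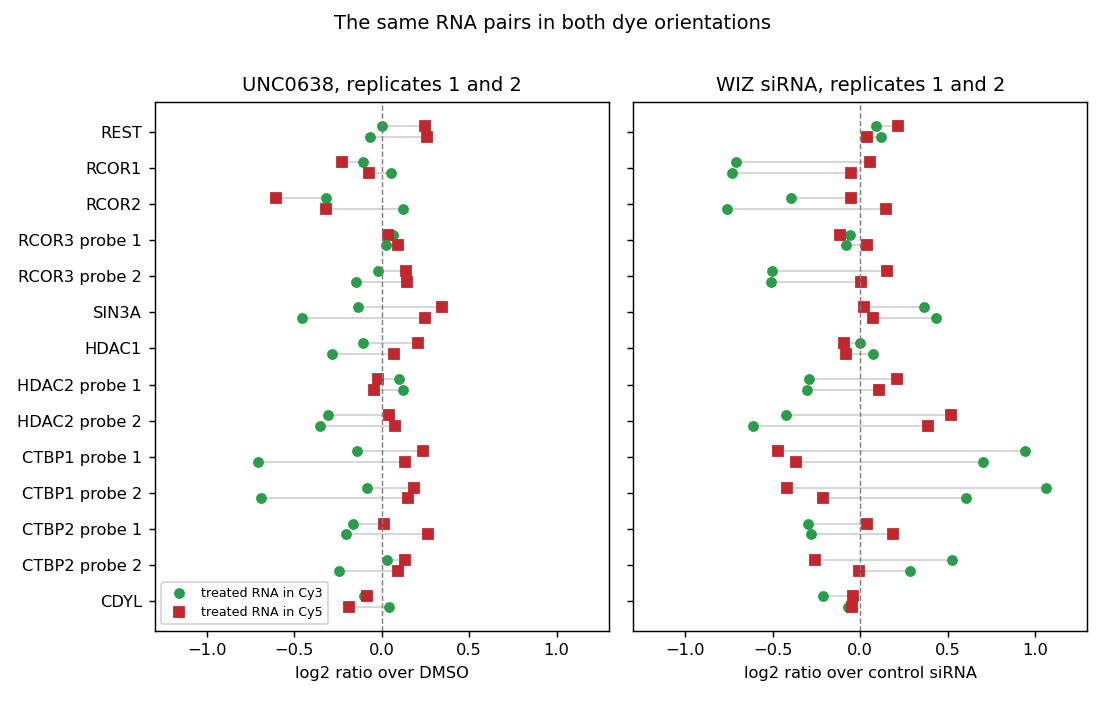
Log2 ratio of treated over control RNA for the 14 member probes on the arrays hybridised in both dye orientations, with a grey line joining the 2 arrays of a biological replicate (replicate 1 above replicate 2). On the WIZ siRNA arrays CTBP1 probe 1 lies at 0.94 and 0.70 where treated RNA carried Cy3 (green circles), and at -0.47 and -0.37 where it carried Cy5 (red squares).

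The G9a siRNA ratios correlated with probe GC content at -0.484 and -0.504 over 16093 probes with a sequence, as did UNC0638 replicate 3 at -0.423. The HDAC2 probe 1 (GC 43.3%) rise stood beside class medians of 0.05 and 0.06 for probes of 40 to 45% GC in the 2 G9a siRNA replicates. CTBP1 probe 1 (GC 35%) fell, while its class of 35 to 40% GC had medians of 0.18 and 0.25. CTBP2 probe 2 (GC 55%) fell in a class of 55 to 60% GC with medians of -0.34 and -0.47. The probe of the targeted EHMT2 (GC 55%) lies in the same class. With the GC trend removed, the G9a siRNA means were 0.93 for HDAC2 probe 1, -1.20 for CTBP1 probe 1, 0.59 and 0.48 for the RCOR3 probes, 0.66 for CTBP2 probe 1 and -0.40 for CTBP2 probe 2. Each of these 6 was still called in limma (adjusted p from 0.0028 to 0.0258). For RCOR1, RCOR2, HDAC2 probe 2 and CTBP1 probe 2 the files give no sequence.

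Across the 9 replicates, the genes with ratios most like those of REST were ZFAND2A (r = 0.974), PEG3 (0.951), RASA2 (0.948), CMIP (0.947) and GNL2 (0.946), out of 18578 genes taken by their brightest tested probe. These are Pearson correlations over replicates that share dyes and array sets. Among the members, REST correlated at 0.46 with RCOR2 and at -0.716 with SIN3A.

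A further list held 32 other subunits and partners of the REST, CoREST, SIN3, CtBP and G9a complexes, each taken by its brightest tested probe, and all 32 were tested. With UNC0638 0 were called in limma, beside 4.6% of all genes (4 had an unadjusted p below 0.05), and KDM1A, the LSD1 demethylase, lay at 0.19 (SE 0.15, limma adjusted p = 0.526). With WIZ siRNA 1 was called, WIZ itself, beside 0.694% lower among all genes. With G9a siRNA 7 rose, beside 18.7% of 18578 genes, and 5 fell, beside 22.6%. EHMT2 fell by 1.66 as the targeted transcript. The zinc finger CoREST partner ZMYM2 lay at 0.84 and 1.36 (mean 1.10, SE 0.21, limma adjusted p = 0.00486), and its other tested probe was called at 0.88. The SIN3 subunit genes SAP18 (0.74 and 0.98, mean 0.86, SE 0.17) and ARID4B (0.61 and 0.91, mean 0.76, SE 0.16) and the deubiquitinase gene USP7 (0.60 and 0.93, mean 0.76, SE 0.16) were higher (limma adjusted p = 0.00545, 0.00643 and 0.00769). ZNF335 lay at -0.64 and -0.89 (mean -0.76, SE 0.12, limma adjusted p = 0.00335). Its probe (GC 55%) is in the class of 55 to 60% GC. On the WIZ siRNA arrays ZNF335 lay at 0.68 and 0.36 with treated RNA in Cy3, and at -0.44 and -0.24 in Cy5. ZMYM2 lay there at -0.28 and -0.20 in Cy3, and at 0.20 and 0.31 in Cy5. SAP18, USP7 and ARID4B were lower there in Cy5 than in Cy3. Both G9a siRNA arrays had treated RNA in Cy5, and the part of the dye in these partner values was not tested. In UNC0638 replicate 3, ZMYM2, SAP18 and ARID4B lay at 0.90, 0.63 and 0.55. The list medians were 0.02, 0.05 and 0.01 with UNC0638, WIZ siRNA and G9a siRNA, beside -0.01, 0.01 and -0.01 over all genes. Without G9a siRNA replicate 2, 0 of the 32 were called.

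The other side of REST is the set of genes it represses. Of a list of 50 neuronal and endocrine genes commonly described as REST targets, 37 were tested. Of these 37, 21 were well above background in both RNAs on every array. Signal in 1 RNA group is enough to be tested, so a gene can enter the counts through the group where it is high. The list was chosen with earlier results of these data known, so its counts beside all genes are a description and no test. With UNC0638 11 rose, beside 2.25% of all genes, and 1 fell, the calcium channel gene CACNA1H (-0.36, SE 0.069, limma adjusted p = 0.0231), beside 2.35%. With WIZ siRNA 0 rose and 8 fell in limma, again beside 0.694% lower, and 18 had an unadjusted p below 0.05. With G9a siRNA 4 rose and 7 fell, again beside 18.7% and 22.6% of all genes. The medians of the list were 0.07, -0.22 and 0.06 in these 3 treatments, beside -0.01, 0.01 and -0.01 over all genes. In UNC0638 replicates 3 to 5 with G9a siRNA alone, 1 rose and 0 fell with UNC0638. Without either WIZ siRNA replicate 3 fell, without G9a siRNA replicate 1 the G9a siRNA counts were 1 and 4, and without G9a siRNA replicate 2 they were 0 and 0.

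**Figure D5:**
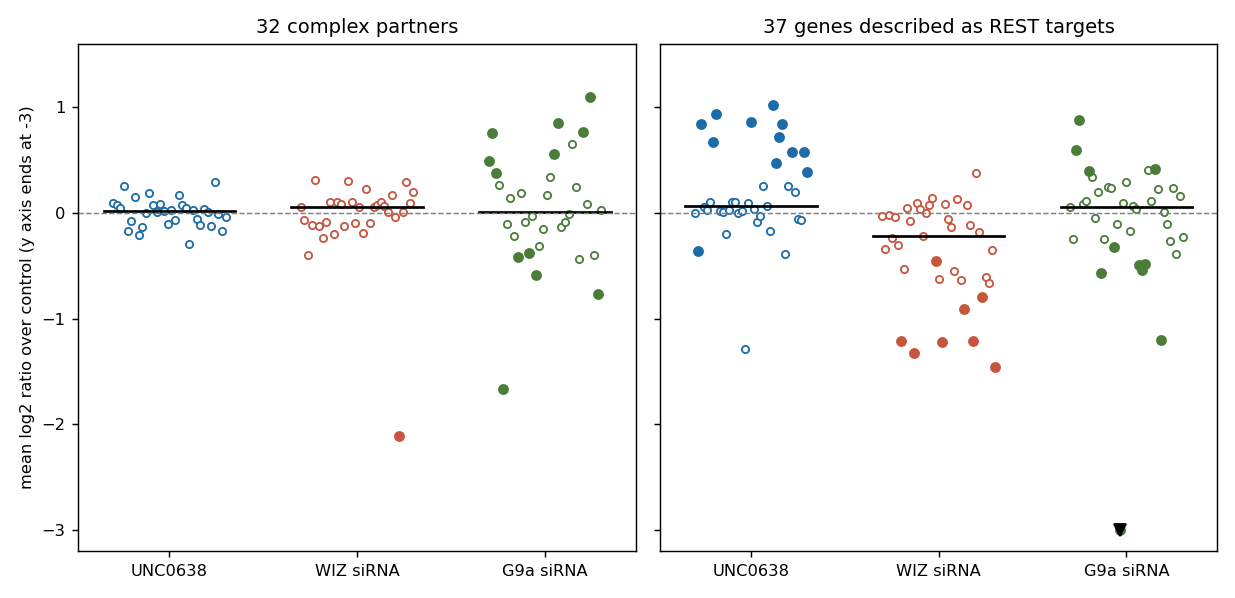
Mean log2 ratio over control in each treatment for 32 complex partners (left) and 37 tested genes described as REST targets (right), 1 point per gene, filled where called, with a black line at the list median. The low point in the left panel is the targeted WIZ, and the triangle at the foot of the right panel is HCN2 at -4.64, beyond the end of the axis.

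Some target genes had values in opposite directions. The granule protein gene CHGA lay at 0.68, 0.83, 0.72, 0.61 and 0.53 with UNC0638, at -1.21 and -1.22 with WIZ siRNA, and at 0.40 and 0.39 with G9a siRNA. It was called in all 3, as higher, lower and higher (limma adjusted p = 0.000256, 0.000735 and 0.00661). The channel subunit gene SCN3B lay at 0.49, 0.64, 0.28, 0.25 and 0.74 with UNC0638 and at -0.85 and -0.96 with WIZ siRNA (limma adjusted p = 0.00922 and 0.0172). VGF, a neuropeptide precursor gene, lay at 0.45, 0.43, 0.25, 0.30 and 0.49 with UNC0638 and at -1.57 and -1.35 with WIZ siRNA (limma adjusted p = 0.00816 and 0.00066). For all 3 genes the UNC0638 and WIZ siRNA replicates lay on opposite sides of 0 with no overlap. The 3 were set side by side after their values were seen, so their opposite directions are a description and no test. CHGA, VGF and SCN3B were below 0 on all 4 WIZ siRNA arrays, SCN3B at -1.51 and -1.36 where treated RNA carried Cy3, and at -0.20 and -0.56 where it carried Cy5.

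Among the targets that rose with UNC0638, the synaptic gene SNAP25 lay at 0.48, 0.56, 0.72, 0.80 and 1.05 (SE 0.077, limma adjusted p = 0.00117). It was also called higher with G9a siRNA, at 0.41 and 0.43. In UNC0638 replicates 1 and 2 SNAP25 lay at 0.15 and 0.19 with treated RNA in Cy3, and at 0.81 and 0.92 in Cy5. UNC0638 replicates 3 to 5 and both G9a siRNA replicates had treated RNA in Cy5 only. The granin gene CHGB lay at 0.98, 0.82, 1.29, 1.03 and 0.55 and the stathmin gene STMN2 at 0.95, 0.99, 0.51, 0.62 and 1.15 with UNC0638, with every replicate above 0. The DMSO signal of CHGB was well above background on 6 of 7 arrays. CALB1, a calcium-binding protein gene, lay at 1.01, 0.62, 0.89, 0.85 and 0.82 with UNC0638 (SE 0.064), but its DMSO signal was well above background on 2 of 7 arrays. CALB1 was also called with G9a siRNA, where neither RNA was well above background on either array, so no fold is given. Other targets fell with an siRNA. The complexin gene CPLX1 lay at -1.31 and -1.34 with WIZ siRNA (SE 0.12) and at -0.43 and -0.71 with G9a siRNA, and the stathmin gene STMN3 at -1.16 and -1.27 with WIZ siRNA and at -1.11 and -1.29 with G9a siRNA. The potassium channel gene KCNC1 lay at -1.33 and -1.13 with WIZ siRNA (SE 0.10), while its other tested probe averaged -1.09 and missed the threshold (limma adjusted p = 0.0583). These genes encode proteins of synapses, microtubules and channels. With G9a siRNA CDK5R1, an activator of CDK5, lay at 0.82 and 0.94 and the scaffold gene MAPK8IP2 at -0.48 and -0.61. On the WIZ siRNA arrays CDK5R1 lay at -0.77 and -0.71 with treated RNA in Cy3, and at 0.29 and 0.23 in Cy5. MAPK8IP2 lay there at 0.32 and -0.09 in Cy3, and at -1.33 and -1.08 in Cy5. STMN3 lay there at -0.58 and -0.66 in Cy3, and at -1.74 and -1.88 in Cy5. In UNC0638 replicates 1 and 2 STMN3 lay at 0.16 and -0.19 in Cy3, and at -0.34 and -0.56 in Cy5. Treated RNA was in Cy5 on both G9a siRNA arrays, and the part of the dye in the G9a siRNA values of these targets was not tested. HCN2 lay at -4.43 and -4.85 with G9a siRNA and at -4.51, -1.49 and -0.42 in UNC0638 replicates 3, 4 and 5, while its other tested probe averaged -0.04 with G9a siRNA. The 2 HCN2 probes disagree, so no direction is given for the gene.

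The RE1 element was looked for in RefSeq promoters of build GRCh38.p14, which span 250 bases before to 50 after each start. On both strands, its left part as TTCAGCACC was in 5 of 51 promoters of the target list (9.8%), in 0 of 20 promoters of 9 members (RCOR2 was not searched) and in 132 of 35116 promoters in all (0.376%). The longer form, CAGCACC followed by any 2 bases and GGACAG, overlaps the left part and was in 2 of 51 (3.92%), 0 of 20 and 18 of 35116 (0.0513%). The right part alone, GGACAG, was in 12 of 51 promoters of the target list (23.5%), 6 of 20 of the members (30%) and 7216 of 35116 in all (20.5%). A match is a description of letters, and no match says only that these letters are not in the window. Both longer matches are shown with 10 bases on either side, the letters of both parts in capitals, to let a reader see the element that REST binds. That of SYN1 is on the minus strand at chrX:47620064-47620100, and that of GRIA2 on the minus strand at chr4:157220382-157220418.
SYN1: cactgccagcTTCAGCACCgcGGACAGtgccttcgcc
GRIA2: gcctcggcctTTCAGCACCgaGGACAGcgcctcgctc

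Of the 5 target genes with the left part in a promoter, GRIA2 was not among the tested genes. The other 4 are named for this match and not for their values. With UNC0638 the synapsin gene SYN1 lay at 0.58 (SE 0.095, limma adjusted p = 0.0112), the granule protein gene SCG3 at 1.02 (SE 0.11, limma adjusted p = 0.00106) and the synaptic priming gene UNC13A at 0.58 (SE 0.075, limma adjusted p = 0.0038). The DMSO signal of SCG3 was well above background on 5 of 7 arrays, and neither of its RNAs was in G9a siRNA replicate 2. CELSR3, a cadherin-family gene, lay at 0.11 and was not called (limma adjusted p = 0.337). The 4 lay between -0.64 and -0.18 with WIZ siRNA and between -0.11 and 0.40 with G9a siRNA, and none was called there in limma (adjusted p from 0.203 to 0.977 and from 0.0914 to 0.627). At an unadjusted p below 0.05 there were 3 with WIZ siRNA (SCG3, UNC13A and CELSR3) and 1 with G9a siRNA (SCG3).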

How the data were processed

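Total RNA of HEK293T cells was hybridised to 13 Agilent Human 8x60K 2-colour arrays. Spot and background intensities were deposited by the authors uncorrected, per the file headers. A log2 ratio that the authors deposited beside them was made by background subtraction and a brightness-dependent normalization, per the file headers. A table of the series holds log10 ratios deposited by the authors, with column medians from -0.01 to 0.00818. Set against each array's own ratio it ran as control over treated on 8 arrays and treated over control on 5, and was turned accordingly. Its centring and filters are not given in the sources used here, nor are scanner, software, slide and scan batch.

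Background was corrected with normexp (offset 50) over 62976 spots, followed by loess within arrays with weight 0 for 4259 control spots (limma 3.58.1, R 4.3.3). The dye labels gave the direction, with file channel 2 as Cy5. Spots of a probe were averaged, and probes above background by more than 2.6 background SDs on at least 50% of the arrays of 1 RNA group were tested. The 9 biological replicates entered 1 limma fit with a mean per treatment (6 residual and 3.33 prior degrees of freedom), with Benjamini-Hochberg adjustment over all probes. The spread of the siRNA groups is therefore largely that of UNC0638. Precision is limited by how few arrays there are. The fit was tested on simulated data. The slide had been planned as a batch, and the 2 array sets took its place.

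Each member was named with all its probes. Of the other lists, at most 6 called genes with the largest mean ratio per treatment were named, and the 5 genes most like REST. CHGA, VGF and SCN3B in their further treatments, CACNA1H, KDM1A and the genes with an RE1 match were named in addition, after the values were seen, and a gene that the rule names and a marker gene are not reported here. The members and lists were chosen with earlier results of these data known. Probe coordinates are those of the files. Same-numbered replicates of different treatments had correlated deviations of -0.278 to 0.367, so the numbers were not taken as pairs. Alternatives changed the normalization, background correction, filter, dye, GC content, set, samples and replicates.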

Additional observations from a re-analysis of the deposited data

Results flagged for a closer look

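Among the 5 UNC0638 replicates, 3 member probes had 1 replicate farther from the others than Dixon's 95% limit for 5 samples allows. REST lay at 0.39 in replicate 5, where the other 4 lay between 0.06 and 0.14. RCOR3 probe 2 lay at 0.44 in replicate 3, and HDAC2 probe 1 at 0.74 in replicate 3, where the others reached 0.07. Chance marks about 1 in 20 groups, and 14 were looked at.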

How the results depend on the processing

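No result reversed its direction past the threshold. Called member probes, of 14 unless stated, were 1 with UNC0638, 0 with WIZ siRNA, 9 with G9a siRNA, 0 for WIZ siRNA minus UNC0638, 4 for G9a siRNA minus UNC0638 and 8 for WIZ siRNA minus G9a siRNA. The UNC0638 count was 0 with the authors' log2 ratio, their log10 table (11 probes), median centring, no background correction and offset 16. It was also 0 with probes above background on every array, a dye term and the GC trend removed (10 probes). The same 10 probes with the trend kept (a setting chosen after seeing the data) gave 0. Set as a random block, either set alone and own replicates alone gave 0 too. The WIZ siRNA count was 7 on own replicates alone and 2 in the first set alone. The G9a siRNA count was 5 with the brightest probe per gene (10 probes) and 5 with a dye term. G9a siRNA minus UNC0638 gave 7 with probes above background on every array. It gave 2 with the log10 table (11 probes), with the brightest probe per gene (10 probes) and with the GC trend removed (10 probes). A dye term also gave 2. G9a siRNA minus UNC0638 gave 0 with the authors' log2 ratio, the dye effect subtracted, own replicates alone, the second set alone and set as a block. WIZ siRNA minus G9a siRNA gave 5 with the brightest probe per gene (10 probes) and 5 with the GC trend removed (10 probes). It gave 5 with a dye term and 0 with set as a block. For these changes the cause was not tested, other than fewer probes where 10 or 11 are named. With the replicate number as a block, G9a siRNA minus UNC0638 gave 10, WIZ siRNA minus G9a siRNA 10 and WIZ siRNA minus UNC0638 0, and as a random block the counts against control stayed at 1, 0 and 9. Leaving out 1 replicate at a time gave 0 to 1 with UNC0638, 0 to 0 with WIZ siRNA, 0 to 10 with G9a siRNA, 0 to 0 for WIZ siRNA minus UNC0638, 0 to 9 for G9a siRNA minus UNC0638 and 0 to 8 for WIZ siRNA minus G9a siRNA. With 1 siRNA replicate left, that sample is assumed to vary like the other groups.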
